A study of Mus musculus with 16 samples.

Results

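The Klf4 locus is a stretch of mouse chromosome 4, 988 kb long (mm9, 54899979 to 55887978), in which contacts between chromosome fragments were counted by 5C. In 5C, ligation products between chosen HindIII fragments are amplified with alternating forward and reverse primers. Every pair of a forward and a reverse fragment of the locus was taken, without the pairs that have a fragment midpoint in the 16 kb window around the Klf4 gene (55539979 to 55555978). This left 15129 of the 92436 fragment pairs that the 7 loci of the study hold within a locus. In the siRNA experiment the same 15129 pairs stood among 32660 pairs of 2 loci. A further 371 pairs lay in the gene window and were left out. The choice used positions and no measured value. Upstream and downstream are used here for lower and higher coordinates, whatever the strand of the gene.

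Mammalian chromosomes fold into domains whose sequences contact each other more often than the sequences next door. A boundary between domains often carries CTCF, a zinc-finger protein that stops the loop-extruding cohesin ring, so that loops tend to end at CTCF sites. YY1 is a zinc-finger protein known to join promoters and enhancers. Klf4 encodes a transcription factor of the pluripotency network, and in the RefSeq order of protein-coding genes it follows Zfp462, which encodes a zinc-finger protein, and Rad23b, which encodes a DNA repair and proteasome shuttle protein.

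The study asked how looping and CTCF binding change between pluripotent and neural cells. V6.5 is a male mouse embryonic stem (ES) line of 129SvJae x C57BL/6 background, here a single line. It was grown in 2i with LIF, a serum-free medium with a pair of kinase inhibitors that holds cells in a ground state, or in serum with LIF. Both ES cultures were expanded on feeder cells and then passaged on gelatin. Neural progenitor cells (NPCs) came from whole brains of P1 mice of the same background that carry Sox2-eGFP, and grew as neurospheres with EGF and FGF. The untreated NPCs were plated at 60000 cells per square cm. NPCs for the siRNA experiment were plated at 20000 cells per square cm and received 20 nM of YY1 or control siRNA for 78 h, and their templates were made in situ. Each of these 5 groups has 2 libraries. Whether libraries of one group stem from separate cultures or animals is not in the labels. The p-values therefore rest on differences between libraries, which may be technical. RNA was not measured, so cell identity and the YY1 knockdown could not be checked. CTCF peaks were listed for 1 library each of 2i ES cells, serum ES cells and NPCs.

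The members held 1361760 to 2764031 counts in the untreated libraries and 1726104 to 2529699 in 3 of the siRNA libraries. YY1 siRNA replicate 2 held 5227423. Between 91.2% and 97.7% of the fragment pairs had a count in the untreated libraries, and 76.7% to 86.9% in the siRNA libraries. Summed over pairs of 16 kb windows, the median count was 113 to 422 in the untreated libraries and 239 to 712 in the siRNA libraries.

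Insulation was scored at the edges between windows. The adjusted contact of a window pair is the log2 of its count per fragment pair, relative to the trend with distance in the same library and to the general level of its 2 windows. The insulation score of an edge is the mean adjusted contact across it, between the 8 windows (128 kb) on either side, so a low score marks an edge that few contacts cross. Scores were obtained for 55 edges, from 54963979 to 55827979. Neighbouring edges share most of their window pairs and are not independent. A window from 55315979 to 55331978 held no contacts and entered no score. Replicates lay close together. Over the 55 edges the median difference between the libraries of a group was 0.011 in serum, 0.020 in 2i, 0.031 in NPCs, 0.032 with control siRNA and 0.054 with YY1 siRNA, on the log2 scale.

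Inside the locus, away from its upstream end, the insulation score was lowest at 2 places, one in ES cells and the other in NPCs. Over the edges from 55059979 on, all 4 ES libraries had their lowest score at 55299979, which is 240 kb upstream of the gene window. Both NPC libraries and all 4 siRNA libraries had theirs at 55523979, which is 16 kb upstream of the gene window. At 55299979 the scores were -0.35 and -0.31 in 2i and -0.23 and -0.28 in serum. They were 0.023 and 0.049 in NPCs, 0.066 and -0.0033 with control siRNA, and 0.053 and 0.050 with YY1 siRNA. All ES libraries thus lay below all NPC libraries, and the siRNA libraries lay near 0 as the NPCs did. At 55523979 the scores were -0.042 and -0.042 in 2i, -0.086 and -0.063 in serum, and -0.43 and -0.53 in NPCs. With control siRNA they were -0.44 and -0.41, and with YY1 siRNA -0.46 and -0.42. The 6 libraries of neural cells lay far below the 4 ES libraries there. The first scored edge, at 54963979, was low in all libraries. It had -0.37 and -0.31 in 2i, -0.31 and -0.28 in serum, -0.50 and -0.48 in NPCs, -0.38 and -0.38 with control siRNA, and -0.35 and -0.37 with YY1 siRNA. It lay below the inner dip in 2i replicate 1, both serum libraries and NPC replicate 1. With no scored edge before it, it could not be called as a minimum, and it was left out of the search for the lowest edge. Both inner places, and the limit at 55059979, were picked with these profiles in view, so these scores are a description.

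A boundary was called at an edge with the lowest score within 3 windows that lay at least 0.3 below the highest scores within 8 windows on both sides. That drop is its depth. The mean of the 6 untreated libraries gave a single boundary, at 55539979, the upstream edge of the gene window, with a depth of 0.36. An edge at 55283979 fell just short with a depth of 0.30 (0.298). Without NPC replicate 1 a second boundary passed at 55299979 (depth 0.39), and without NPC replicate 2 at 55283979 (depth 0.34). Taken by group, the mean of 2i had boundaries at 55299979 (depth 0.58) and at 55555979, the downstream edge of the gene window (depth 0.41). The mean of serum passed at 55299979 (depth 0.39), while its minimum at 55539979 had a depth of 0.25. NPCs had boundaries at 55523979 (depth 0.56) and at 55251979 (depth 0.33). Control siRNA gave the same 2 edges, with depths of 0.53 and 0.31. YY1 siRNA passed at 55523979 (depth 0.54), and its minimum at 55251979 had a depth of 0.22. This upstream minimum was shallow in single neural libraries. NPC replicate 1 passed at 55267979 (depth 0.38) and control siRNA replicate 2 at 55251979 (depth 0.34), while NPC replicate 2 reached 0.30 (0.297) at 55251979, control siRNA replicate 1 reached 0.28, and the YY1 siRNA libraries reached 0.18 and 0.29.

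**Figure D1:**
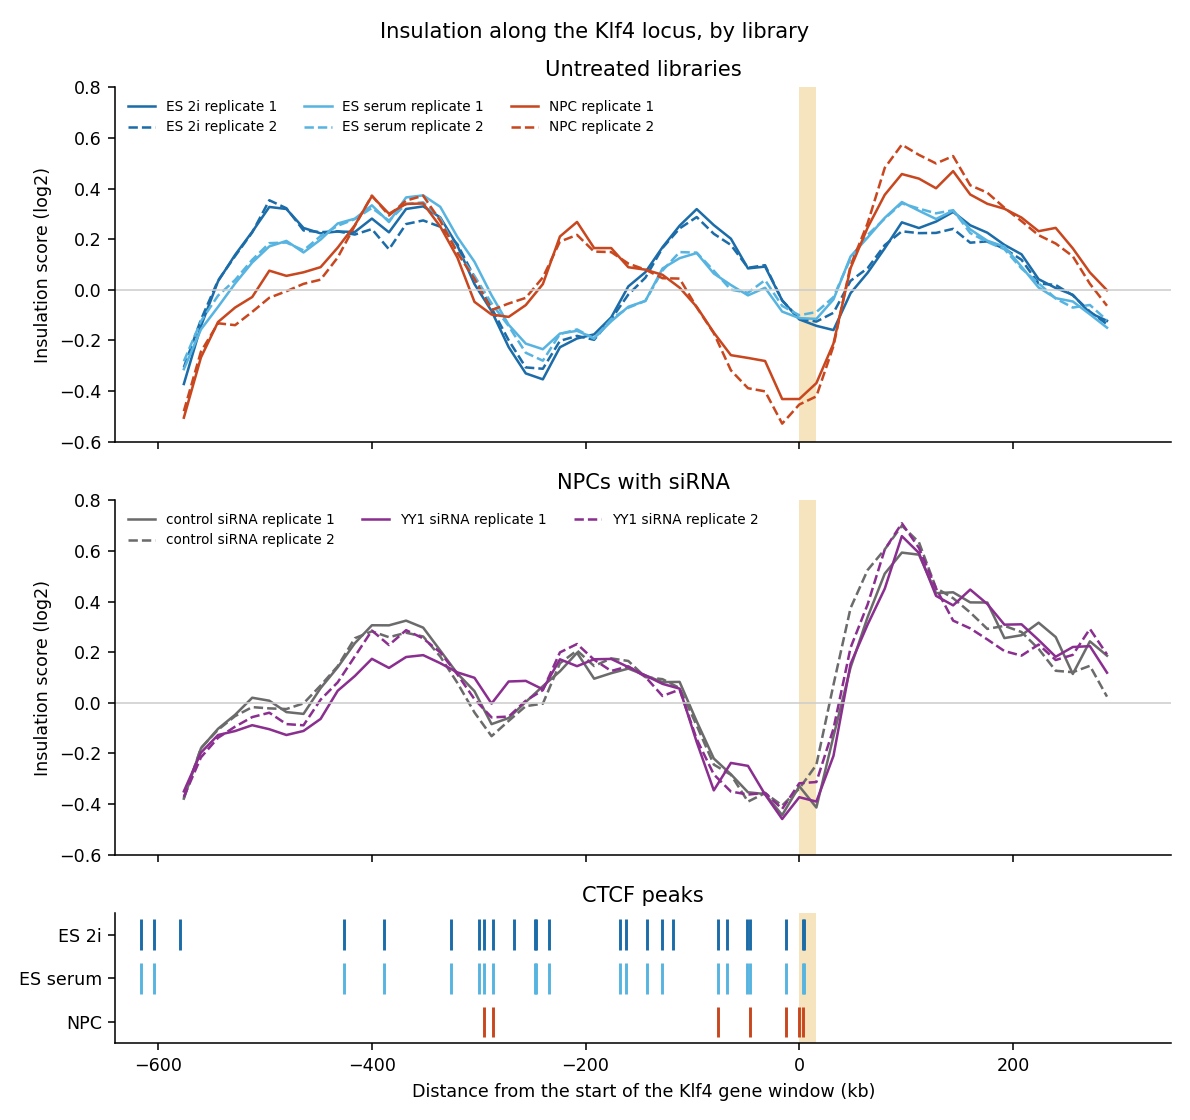
Insulation score (log2) at each window edge against distance from the start of the Klf4 gene window (kb), 1 line per library, with the CTCF peaks of each list as ticks and the gene window shaded. The ES lines dip at -240 kb, where they lie between -0.35 and -0.23, and the lines of untreated and siRNA-treated NPCs dip at -16 kb, where they lie between -0.53 and -0.41.

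Insulation differed between NPCs and 2i ES cells along most of the locus. The score was higher in NPCs at 26 edges, or 47.3%, against 42.2% of the 370 edges of all loci. It was lower at 21 edges, or 38.2%, against 40.8% (limma on the scores, Benjamini-Hochberg adjusted p below 0.05). These shares are near the background, so the number of changed edges is no finding about the locus. The changed edges came in runs, which the score favours, since neighbouring edges share most of their window pairs. Scores were lower from 54963979 to 55107979 (10 edges), higher from 55267979 to 55379979 (8 edges), lower from 55411979 to 55571979 (11 edges) and higher from 55587979 to 55827979 (16 edges). The other 2 called edges, 55139979 and 55155979, were higher.

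The largest rise was at 55331979, beside the window with no contacts. The scores were -0.19 and -0.18 in 2i and 0.27 and 0.22 in NPCs. The difference was 0.43 (SE 0.022, adjusted p = 4.45e-07 by limma). At 55283979, inside the dip of the ES profile, the scores were -0.33 and -0.31 in 2i and -0.060 and -0.032 in NPCs, a difference of 0.27 (SE 0.024, adjusted p = 7.36e-06 by limma). A further rise lay at higher coordinates than the gene window, at 55635979, where 2i had 0.27 and 0.23 and NPCs had 0.46 and 0.57, a difference of 0.27 (SE 0.037, adjusted p = 0.000133 by limma). At all 3 edges the libraries of the groups did not overlap.

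The largest fall was at 55475979, which is 64 kb upstream of the gene window. The scores were 0.20 and 0.18 in 2i and -0.26 and -0.32 in NPCs, a difference of -0.48 (SE 0.025, adjusted p = 4.45e-07 by limma). The dip of the NPC profile at 55523979 followed, with a difference of -0.44 (SE 0.032, adjusted p = 2.33e-06 by limma). A further fall lay near the upstream end, at 55043979, where 2i had 0.33 and 0.35 and NPCs had 0.076 and -0.031, a difference of -0.32 (SE 0.033, adjusted p = 2.29e-05 by limma). These 6 differences kept their direction and stayed past the threshold under each of the 16 alternatives run.

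NPCs and serum ES cells gave the same kind of map. These comparisons share the NPC libraries, so they are set side by side and not counted as 2 findings. The score was higher in NPCs at 23 edges, or 41.8%, against 42.4% of all edges, and lower at 22 edges, against 43.2% (limma). The rises were led by 55331979, with -0.16 and -0.16 in serum and a difference of 0.40 (SE 0.022, adjusted p = 9.12e-07 by limma). At 55779979 serum had -0.033 and -0.034 and NPCs had 0.24 and 0.18, a difference of 0.25 (SE 0.024, adjusted p = 1.62e-05 by limma). At 55683979 serum had 0.31 and 0.31 and NPCs had 0.47 and 0.53, a difference of 0.18 (SE 0.030, adjusted p = 0.000462 by limma). The rises at 55779979 and 55683979 each changed sign under a setting named in the closing section.

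The falls against serum were led by the dip at 55523979, with a difference of -0.41 (SE 0.032, adjusted p = 4.64e-06 by limma). At 55475979 serum had 0.019 and 0.00060 against -0.26 and -0.32 in NPCs, a difference of -0.30 (SE 0.025, adjusted p = 6.4e-06 by limma). At 54963979, the first scored edge, serum had -0.31 and -0.28 and NPCs had -0.50 and -0.48, a difference of -0.19 (SE 0.031, adjusted p = 0.000359 by limma).

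The 2 ES states differed by less in the insulation score. Serum was higher than 2i at 10 edges, or 18.2%, against 21.9% of all edges, and lower at 14 edges, or 25.5%, against 23.5% (limma). The median size of the difference over the 55 edges was 0.057, against 0.18 for NPCs and 2i. The 24 called edges became 41 with the general level of each window kept and 43 with the authors' processed contact values. Single window pairs, described further on, were tested with the window levels kept. There 376 pairs were called, against 303 for NPCs and 2i (edgeR). In serum against 2i 7.72% were higher and 13.0% lower, against 9.11% and 11.8% over all loci. In NPCs against 2i the shares were 7.88% and 8.82%, against 7.85% and 9.22%. The shares are near the background, so the order of these counts is no finding about the locus. The count for serum against 2i also dropped when an ES library was left out. Serum fell most at 55475979, where 2i, serum and NPCs stood in that order (serum against 2i: difference -0.18, SE 0.025, adjusted p = 0.000953 by limma). The scores also fell at 55043979 (difference -0.16, SE 0.033, adjusted p = 0.00554 by limma), where serum had 0.17 and 0.18, and at 55427979 (difference -0.11, SE 0.021, adjusted p = 0.00411 by limma), where 2i had 0.25 and 0.24 and serum had 0.12 and 0.15. Serum rose at 55603979, where 2i had 0.068 and 0.086 and serum had 0.21 and 0.22 (difference 0.14, SE 0.020, adjusted p = 0.00127 by limma). It rose by less at 55283979 (difference 0.088, SE 0.024, adjusted p = 0.0171 by limma) and at 55155979 (difference 0.077, SE 0.026, adjusted p = 0.0393 by limma). Leaving out either 2i library or serum replicate 1 took the call at 55283979 away, with differences between 0.070 and 0.10 and an adjusted p up to 0.117 by limma. At 55155979 the call was lost without 2i replicate 2, serum replicate 1 or serum replicate 2 (differences of 0.043 to 0.080, adjusted p up to 0.172 by limma). At 55043979 it was lost without either 2i replicate (differences of -0.18 and -0.15, adjusted p up to 0.0835 by limma). With 4 windows on each side of an edge, the calls ended at 55427979 (difference -0.0079, adjusted p = 0.913 by limma), 55603979 (0.11, adjusted p = 0.126), 55155979 (0.12, adjusted p = 0.0858) and 55043979 (-0.082, adjusted p = 0.198). At 55427979 the difference ranged from -0.61 to -0.0079 over the alternatives. The count of called edges fell from 24 to 11 or 12 when any ES library was left out.

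YY1 siRNA and control siRNA were not told apart in insulation. No edge passed the threshold in either direction (limma), against 0% of the 110 edges of the 2 loci, and 3 edges of the Klf4 locus had an unadjusted p below 0.05 by limma. The largest of these differences was at 55571979, at -0.13 (95% interval -0.21 to -0.038, adjusted p = 0.452 by limma). The intervals at the main places were narrow next to the gap between cell types. At 55523979 the difference was -0.014 (95% interval -0.095 to 0.067), and at 55299979 it was 0.020 (95% interval -0.068 to 0.11). At 55251979 YY1 siRNA had -0.0029 and -0.057 against -0.084 and -0.13, a difference of 0.078 (95% interval -0.00038 to 0.16, adjusted p = 0.452 by limma). Without YY1 siRNA replicate 2, the deepest library, 10 edges passed, 3 higher and 7 lower. With the general level of each window kept, 11 passed, 3 higher and 8 lower, and with the authors' processed contact values in place of the counts 7 passed, all lower.

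**Figure D2:**
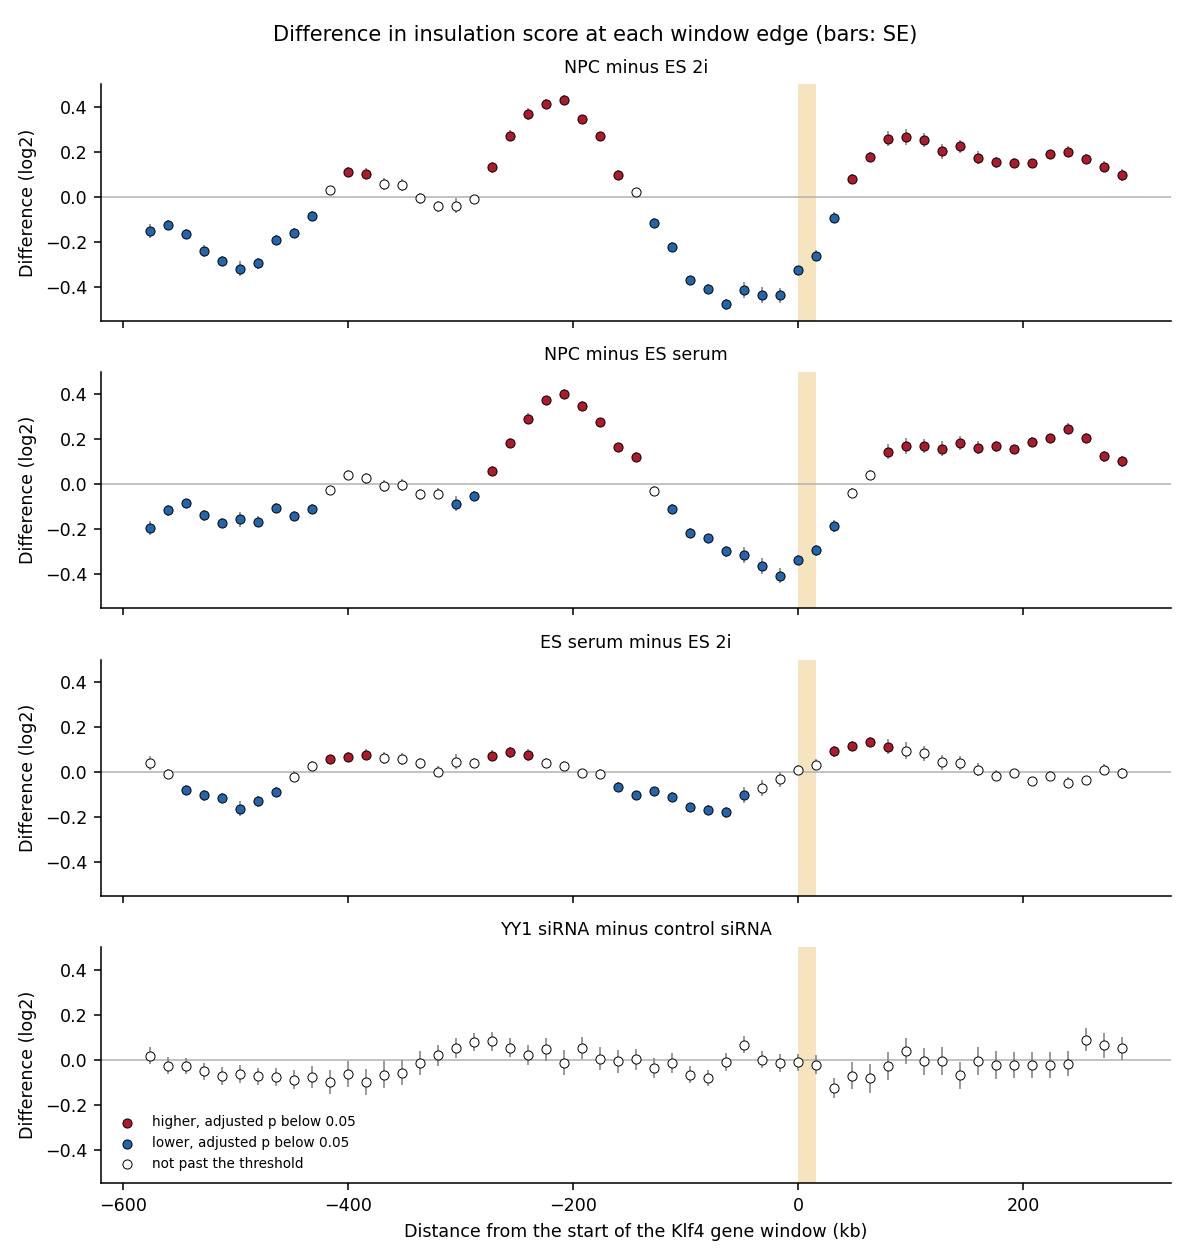
Difference in insulation score (log2) between groups at each of the 55 edges against distance from the start of the Klf4 gene window (kb), with bars for the SE and filled points past the threshold. NPCs are higher than 2i by up to 0.43 around -208 kb and lower by up to 0.48 around -64 kb, and no edge is filled for YY1 siRNA.

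The blocks within and between domains were compared next. The single boundary of the 6 untreated libraries splits the locus into an upstream domain of 640 kb and a downstream domain that starts with the gene window. Contact across it was lower in NPCs. The mean adjusted contact over 818 window pairs was -0.096 and -0.081 in 2i, -0.095 and -0.093 in serum, -0.18 and -0.20 in NPCs, -0.21 and -0.19 with control siRNA, and -0.21 and -0.20 with YY1 siRNA. Within the downstream domain (210 window pairs) it was 0.19 and 0.16 in 2i, 0.18 and 0.18 in serum, 0.36 and 0.39 in NPCs, 0.40 and 0.37 with control siRNA, and 0.41 and 0.38 with YY1 siRNA. Once the level of each window is removed, the 3 blocks of 2 domains are tied and carry about 1 value. All 3 blocks were called for NPCs against 2i, where 79.3% of the 29 blocks of all loci were called, and for NPCs against serum, again 79.3%. Across the boundary the difference was -0.10 against 2i (SE 0.0095, adjusted p = 0.00102 by limma) and -0.099 against serum (SE 0.0095, adjusted p = 0.0015 by limma). In the downstream domain it was 0.20 against 2i (SE 0.021, adjusted p = 0.00113 by limma) and 0.19 against serum (SE 0.021, adjusted p = 0.00203 by limma). None of the 3 blocks was called for serum against 2i, where 24.1% of all blocks were, or for YY1 siRNA, where 0% of 6 were. At an unadjusted p below 0.05 by limma their number was also 0. The serum result depends on the window levels. With them kept, all 3 blocks were called for serum against 2i, as they were with the authors' processed contact values, and in the downstream domain serum exceeded 2i by 0.43 and 0.40 in place of 0.0094. With the window levels kept, the change of NPCs across the boundary against 2i shrank to -0.035 (adjusted p = 0.205 by limma), and with the authors' processed values to -0.0041 (adjusted p = 0.582 by limma). With the levels kept, the rise within the downstream domain was 0.53 against 2i (adjusted p = 0.00056 by limma) and 0.11 against serum (adjusted p = 0.10 by limma).

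Contact within minus contact between the 2 domains was 0.18 and 0.15 in 2i, 0.18 and 0.17 in serum, and 0.34 and 0.38 in NPCs. It was 0.39 and 0.36 with control siRNA and 0.39 and 0.37 with YY1 siRNA. The neural libraries had about the same separation with and without siRNA. This contrast restates the tied block values above, and its gap between NPCs and 2i depends on removing the window levels. With the levels kept, NPCs minus 2i was -0.14 within the upstream domain and 0.53 within the downstream domain. The contrast in 2i then lay close to that in NPCs, while serum stayed below both.

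**Figure D3:**
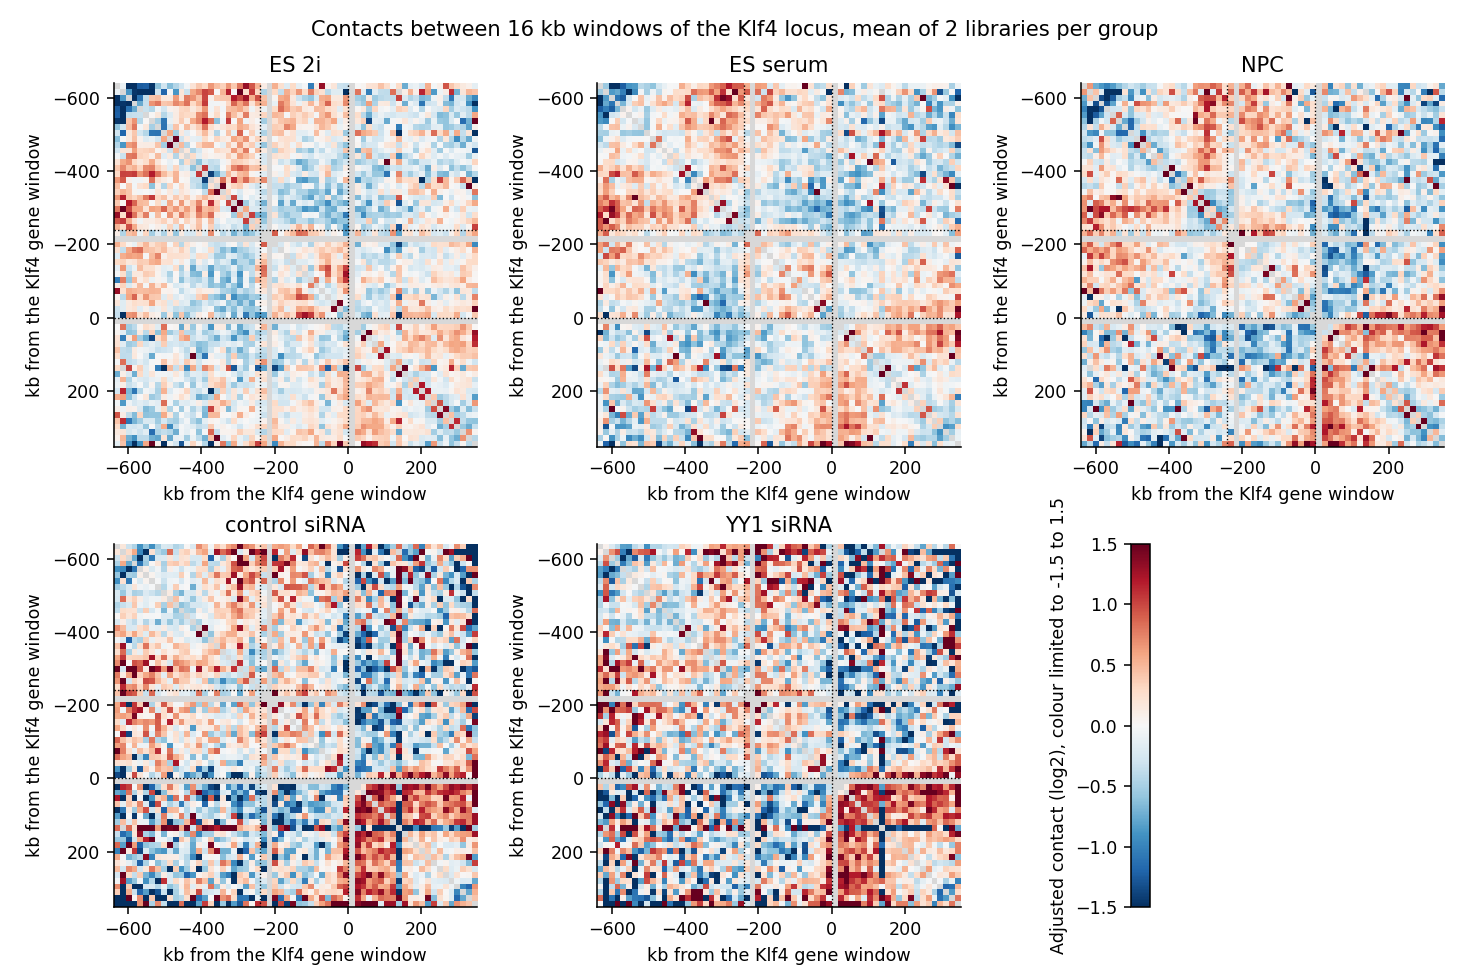
Adjusted contact (log2) between 16 kb windows, mean of the 2 libraries of a group, with both axes in kb from the Klf4 gene window, dotted lines at -240 and 0 kb, and grey for pairs with no value. The blue block between the middle and downstream stretches and the red downstream block are stronger in NPCs and siRNA-treated NPCs, and the stripe at 128 kb is the thinly counted window described in the text.

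The edge that is lowest in ES cells and the boundary of the mean divide the locus into 3 segments, upstream (400 kb), middle (240 kb) and downstream (348 kb). They were drawn after the profiles were seen, so their values are a description for the untreated libraries. The siRNA libraries took no part in the choice. Contact of the middle with the upstream segment was -0.090 and -0.10 in 2i, -0.092 and -0.096 in serum, and 0.10 and 0.13 in NPCs. It was 0.083 and 0.083 with control siRNA and 0.16 and 0.092 with YY1 siRNA. Contact of the middle with the downstream segment went the other way. It was -0.020 and -0.0071 in 2i, 0.030 and 0.031 in serum, -0.17 and -0.19 in NPCs, -0.19 and -0.18 with control siRNA, and -0.27 and -0.17 with YY1 siRNA. In both values the ES libraries stood apart from all 6 neural libraries, but these are not separate readouts. With the level of each window removed, the contacts of a segment with itself and with the others balance out. The segment values are therefore tied, and a gain of the middle with the upstream segment has to be matched by a loss elsewhere. With window pairs under 10 counts left out, middle with downstream contact was between -0.26 and -0.17 in the siRNA libraries. The middle segment with itself had 0.21 and 0.21 in 2i, 0.13 and 0.13 in serum, and 0.079 and 0.061 in NPCs. It was 0.14 and 0.13 with control siRNA and 0.12 and 0.10 with YY1 siRNA, so here the siRNA libraries lay near serum and above the untreated NPCs. With window pairs under 10 counts left out they had 0.0095 to 0.058.

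Part of this depends on removing the level of each window. With those levels kept, contact of the middle with the upstream segment was 0.43 in 2i and 0.41 in NPCs on average, and 0.14 in serum, so the gain against 2i was gone and the gain against serum was 0.27. The loss of middle with downstream contact stayed, at -0.17 against both ES states. The middle segment with itself then stood out in 2i, at 0.78 and 0.74, against 0.21 and 0.17 in serum, 0.27 and 0.31 in NPCs and -0.064 to 0.12 in the siRNA libraries. That is a difference of -0.57 for serum against 2i and -0.47 for NPCs against 2i.

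**Figure D4:**
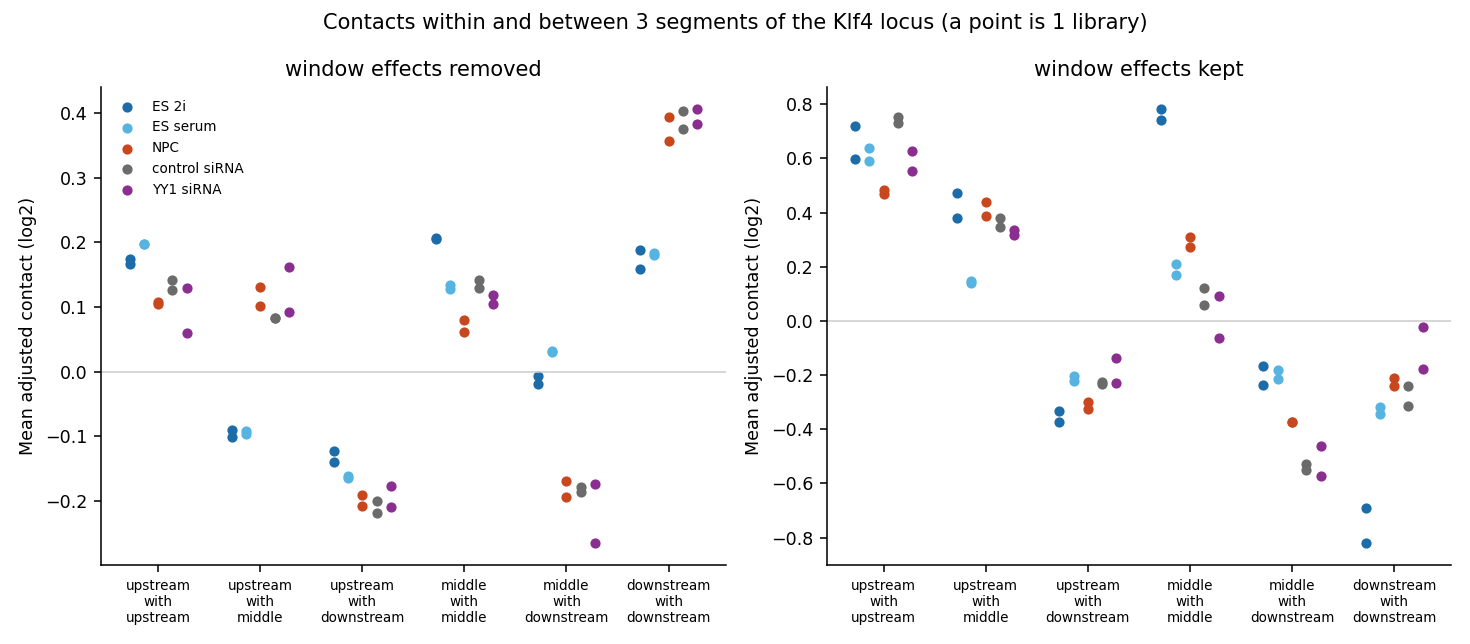
Mean adjusted contact (log2) within and between the 3 segments, 1 point per library, with the level of each window removed (left) or kept (right). The ES libraries lie between -0.020 and 0.031 for middle with downstream contact on the left, above all neural libraries, and the 2i libraries lie at 0.78 and 0.74 for middle with middle contact on the right.

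Single window pairs were tested on their counts. Of 1826 window pairs, a window with itself included, 1814 passed the count filter in the untreated libraries. In NPCs against 2i, 143 pairs were higher (7.88%, against 7.85% of the 15601 pairs of all loci) and 160 lower (8.82%, against 9.22%; edgeR quasi-likelihood test, adjusted p below 0.05). In NPCs against serum 193 were higher (10.6%, against 15% of all pairs) and 153 lower (8.43%, against 14.2%; edgeR). In serum against 2i 140 were higher (7.72%, against 9.11%) and 236 lower (13.0%, against 11.8%; edgeR). Scaling by total counts with no distance trend moved these splits to 159 higher and 239 lower, 134 and 387, and 281 and 160. It also moved the median log2 fold over the 1814 pairs from 0.052 to -0.086, from 0.064 to -0.34 and from -0.027 to 0.23. That setting replaces both the scaling and the distance trend, and which of them moved the splits was not tested. Single libraries also moved the counts. Leaving out 2i replicate 1 gave 120 pairs for NPCs against 2i, leaving out serum replicate 1 or 2 gave 153 or 121 for NPCs against serum, and leaving out an ES library gave 74 to 247 for serum against 2i.

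The calls were spread unevenly over the segments. This test keeps the level of each window. In serum against 2i, pairs within the middle segment fell, with 55 of 105 lower and 3 higher (edgeR), and 42 lower and 2 higher when scaled by total counts. Pairs of the upstream with the middle segment fell more often than they rose, with 83 of 349 lower and 5 higher, and 63 and 25 when scaled by total counts. Within the upstream segment 55 of 324 were lower and 13 higher, but 36 and 38 when scaled by total counts. Pairs within the downstream segment rose, with 66 of 229 higher and 5 lower, and 98 and 5 when scaled by total counts. With window levels removed, serum minus 2i in mean adjusted contact was -0.075 within the middle segment and 0.0020 for upstream with middle. It was 0.027 within the upstream and 0.0094 within the downstream segment. In NPCs against 2i, 37 of 105 pairs within the middle segment were lower and 1 higher, and 84 of 229 downstream pairs were higher and 4 lower. Scaled by total counts these were 41 and 16, and 93 and 2. Between the middle and downstream segments 23 of 294 pairs were lower and 9 higher in NPCs against 2i, and 45 lower and 28 higher against serum. Scaled by total counts they were 53 and 4, and 126 and 16. Pairs of the upstream with the middle segment were higher in NPCs against serum at 74 of 349 and lower at 10, but scaled by total counts 13 were higher and 49 lower.

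The named pairs were those with the largest fold, at least 3 windows apart, with groups that do not overlap. Here the adjusted contact keeps the window levels. The strongest rise in NPCs over 2i joined the windows that start at 55155979 and 55779979, which are 624 kb apart. It stood at 1.1 and 1.5 in 2i and 3.30 and 2.68 in NPCs, with a log2 fold of 1.68 (SE 0.30, adjusted p = 0.00125 by edgeR). The window at 55779979 also gained contact with 55507979, from -0.63 and -0.28 in 2i to 1.46 and 0.90 in NPCs (log2 fold 1.60, SE 0.24, adjusted p = 0.000391 by edgeR). The windows at 55027979 and 55763979 had -1.08 and 0.28 in 2i and 1.32 and 1.5 in NPCs (log2 fold 1.59, SE 0.39, adjusted p = 0.0106 by edgeR), a call that was lost without 2i replicate 1 (log2 fold 1.12, adjusted p = 0.096 by edgeR). All 3 rises span the Klf4 gene window. The siRNA-treated NPCs did not stand as high as the untreated NPCs at these pairs. The first pair had 0.33 and 1.78 with control siRNA and 0.79 and -0.63 with YY1 siRNA, below both NPC libraries. At 55507979 with 55779979 they had 0.76 and 0.88, and -0.30 and 0.52, and at 55027979 with 55763979 -0.37 and -0.18, and -0.13 and 0.96. The 2 experiments differ in plating density, siRNA and template preparation, which cannot be told apart here. The window at 55779979 held 3.80% and 3.69% of the locus counts in 2i and 6.61% and 5.82% in NPCs, so its total rose too. It held 3.72% and 4.01% with control siRNA and 3.74% and 4.01% with YY1 siRNA.

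The window from 55667979 to 55683978 was an end of 5 of the 6 named falls in NPCs. It held few counts, 0.50% to 0.64% of the locus in the ES libraries, 0.31% and 0.28% in NPCs and 0.0062% to 0.056% with siRNA. With 55411979 it had 77 and 53 counts in 2i, 151 and 195 in serum and 4 and 5 in NPCs (log2 fold -3.38 against 2i, adjusted p = 0.000856, and -3.47 against serum, adjusted p = 0.000301, by edgeR). With 55203979 it had 41 and 50 counts in 2i and 1 and 4 in NPCs (log2 fold -3.59, SE 0.73, adjusted p = 0.00321 by edgeR). With 55267979 it had 71 and 94 counts in serum and 1 and 0 in NPCs, a ratio of serum to NPC counts of 110.0 (95% exact interval 19.5 to 4369, for counting error only). With 55283979 it had 39 and 40 counts in serum and 1 and 0 in NPCs, a ratio of 52.6 (95% exact interval 9.18 to 2105, for counting error only). The edgeR call for 55283979 (adjusted p = 0.0162) was lost without either serum replicate or NPC replicate 2 (adjusted p = 0.0573 to 0.107 by edgeR). Each of these pairs rests on 2 to 4 fragment pairs. The part of the thin window in these falls was not tested. The other named fall joined 54995979 and 55475979, which are 480 kb apart. It stood at 2.31 and 2.19 in 2i and -0.54 and -0.12 in NPCs (log2 fold -2.61, SE 0.37, adjusted p = 0.000194 by edgeR). This pair rests on 3 fragment pairs. It had -1.004 and 1.19 with control siRNA and 0.90 and 1.12 with YY1 siRNA. All but control siRNA replicate 1 lay above both NPC libraries. The window at 55475979 held 6.41% and 5.52% of the locus counts in 2i and 2.73% and 2.87% in NPCs. The window at 54995979 held 2.17% and 2.44% in 2i and 1.33% and 1.37% in NPCs. The part of these totals in the fall was not tested.

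The window from 55523979 to 55539978, between the NPC insulation dip and the gene window, was an end of 5 named pairs. Its share of the locus counts was 2.56% and 2.70% in 2i, 1.27% and 1.28% in serum and 1.73% and 1.71% in NPCs. The same window held 0.43% and 0.42% with control siRNA and 0.40% and 0.48% with YY1 siRNA. In serum it lost contact with 55363979, from 1.89 and 1.82 in 2i to -0.30 and -0.26 (log2 fold -2.21, SE 0.22, adjusted p = 1.76e-05 by edgeR). It also lost contact with 55395979, from 2.86 and 2.43 to 0.68 and 0.64 (log2 fold -2.08, SE 0.22, adjusted p = 3.29e-05 by edgeR), and with 54931979, from 2.30 and 1.72 to -0.35 and 0.35 (log2 fold -2.07, SE 0.35, adjusted p = 0.000922 by edgeR). In NPCs against serum it gained contact with 55731979, on the other side of the gene window, from -0.14 and -0.083 to 1.85 and 1.75 (log2 fold 1.96, SE 0.20, adjusted p = 7.09e-06 by edgeR). With 55875979 it went from -0.42 and -0.33 to 1.11 and 1.37 (log2 fold 1.67, SE 0.39, adjusted p = 0.00519 by edgeR). That last pair rests on 2 fragment pairs, of which 1 held 62.5% of the untreated counts. Its raw counts were 66 and 75 in serum and 53 and 80 in NPCs, and the part of scaling and distance trend in the fold was not tested. In this readout, which keeps the window levels, the siRNA-treated NPCs did not show these gains. They had -0.67 to -0.085 with 55731979 and -1.43 to -0.19 with 55875979. The window's own total moved with these pairs, and its part in them was not tested.

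The remaining named pairs lay within or between the other stretches. The windows at 55299979 and 55363979, both at CTCF sites of the ES lists, stood at 0.44 and -0.13 in serum and 2.50 and 1.95 in NPCs (log2 fold 2.06, SE 0.25, adjusted p = 2.88e-05 by edgeR). In 2i they had 1.22 and 1.69, and in the siRNA libraries -0.82 to -0.21, below both NPC libraries. The window at 55363979 held 2.86% and 3.27% of the locus counts in 2i, 1.49% and 1.39% in serum and 2.23% and 2.24% in NPCs. It held 0.61% to 0.73% in the siRNA libraries. The window at 55299979 held 1.90% to 2.86% over all libraries. The part of these totals in the pair was not tested. Serum exceeded 2i at 55635979 with 55859979, from 0.074 and 0.27 to 1.93 and 2.24 (log2 fold 1.84, SE 0.31, adjusted p = 0.000858 by edgeR). It also did at 55187979 with 55491979, from -0.38 and 0.31 to 1.68 and 2.02 (log2 fold 1.76, SE 0.32, adjusted p = 0.00148 by edgeR), and at 55667979 with 55843979, where 2i had 15 and 33 counts and serum 173 and 171 (log2 fold 1.60, SE 0.45, adjusted p = 0.0191 by edgeR). The last call was lost without 2i replicate 1 or either serum replicate (log2 fold 1.34 to 1.66, adjusted p = 0.101 to 0.151 by edgeR). A single fragment pair held 70.6%, 73.7% and 67.0% of the untreated counts of these serum rises, in that order.

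No window pair of the 1742 tested was called for YY1 siRNA against control siRNA (edgeR), against 0% of 3741 pairs in both loci. At an unadjusted p below 0.05 there were 170 by edgeR. DESeq2 called 21, with 11 higher and 10 lower. Leaving out YY1 siRNA replicate 2 gave 46, with 17 higher and 29 lower by edgeR. The spread between libraries was large, with a common coefficient of variation of 0.376 against 0.2 (0.1995) in the untreated fit.

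CTCF peaks lay along the upstream and middle segments and stopped at the gene. The peak lists placed 26 CTCF sites in the locus, of which 12 were upstream, 12 in the middle segment and 2 in the gene window at the start of the downstream segment. From the end of the last site at 55544431 to the end of the locus, 344 kb, no list had a peak. The 2i list had 25 peaks in the locus, the serum list 22 and the NPC list 7. The NPC list is shorter as a whole, with 28860 peaks against 56138 and 50185, and each list rests on 1 library, so that fewer peaks in NPCs cannot be told apart from a shorter list. Fold enrichments are the authors' values and rank peaks within a list only.

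Of the 26 sites, 6 were in all 3 lists, 16 in both ES lists only, 3 in the 2i list only and 1 in the NPC list only. The 3 sites nearest the ES insulation dip at 55299979 were in both ES lists and not in the NPC list. They lay at 55292288 to 55292593, at 55293658 to 55293931 and at 55305117 to 55305485, and their fold enrichments were 31.9, 18.6 and 39.5 in 2i and 23.5, 12.8 and 25.5 in serum. NPCs had no dip there, and no peak of the NPC list lay between 55253769 and 55463970. The site at 55253358 to 55253769, at the shallower upstream boundary of NPCs, was in all 3 lists, with a fold enrichment of 25.0 in 2i, 34.8 in serum and 20.6 in NPCs.

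Of the 4 sites nearest the boundary of the mean at 55539979, 2 were in all 3 lists. The site at 55527478 to 55527979, 12.3 kb upstream of the gene window, had a fold enrichment of 14.5 in 2i, 29.6 in serum and 28.8 in NPCs, where it ranked second in the locus. The site at 55539380 to 55539535, 0.522 kb upstream of the gene window, was in the NPC list only, with 15.1. In the gene window, the site at 55543078 to 55543514 was in all 3 lists, with 29.2 in 2i, 21.6 in serum and 17 in NPCs, and the site at 55544172 to 55544431 was in both ES lists only, with 8.92 and 13.4. These 4 sites lay within 16 kb of the boundary of the mean at 55539979. Those upstream of the gene window also lay within 16 kb of the NPC dip at 55523979, and those in the gene window lay further from it. Of the 55 scored edges, 25 had a site of any list within 16 kb, or 45.5%, and 10 had a site of the NPC list, or 18.2%.

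The highest fold enrichment in the locus was at 55493256 to 55493676, in the middle segment, with 56.0 in 2i and 28.9 in NPCs, and it ranked second in serum with 35.2. The first in serum was at 55377245 to 55377740, with 35.2 (35.243), which had 36.9 in 2i and was not in the NPC list. Outside the gene window 5 windows had a site of all 3 lists. Their 7 pairs at least 3 windows apart had a mean adjusted contact of -0.36 in 2i, -0.57 in serum and -0.42 in NPCs. The 69 pairs of windows with ES sites only had 0.20 in 2i, 0.23 in serum, 0.28 in NPCs, 0.28 with control siRNA and 0.23 with YY1 siRNA. The 798 pairs with no site had -0.0021, 0.0067, 0.018, 0.027 and 0.024 in the same order.

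**Figure D5:**
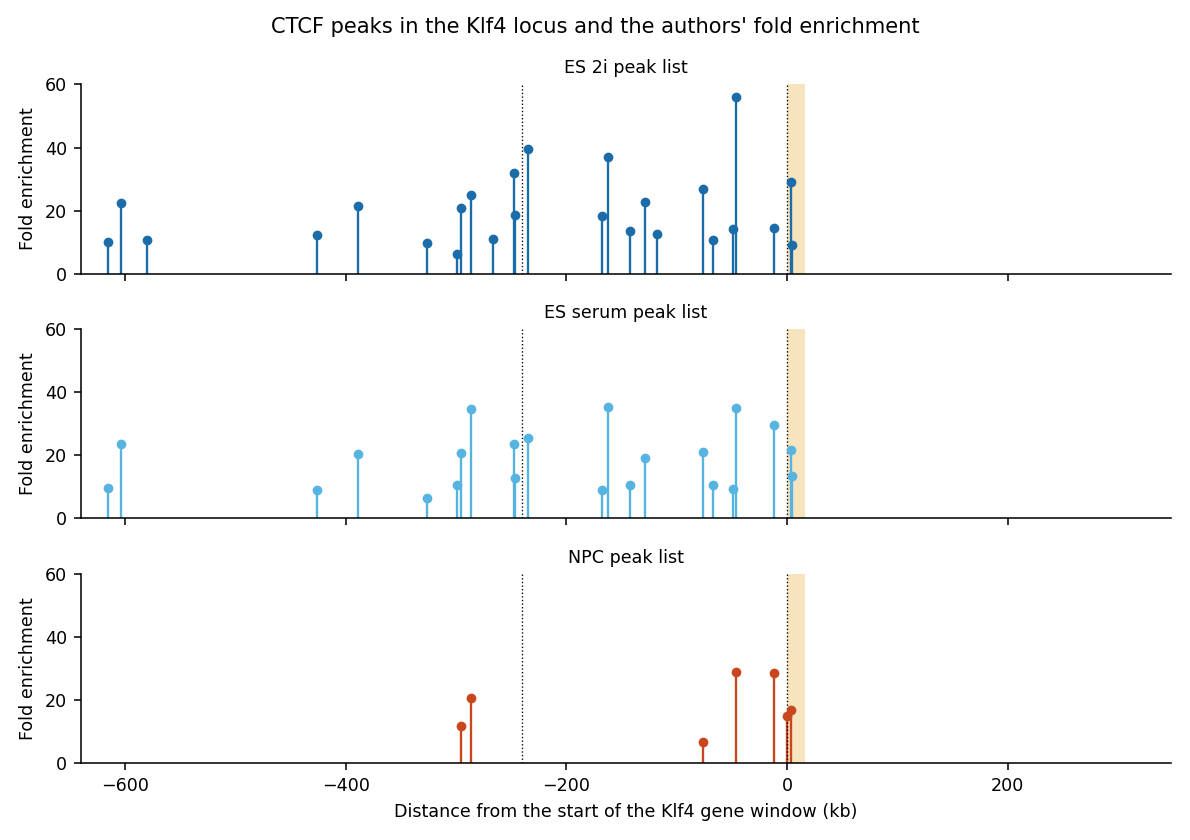
The authors' fold enrichment of CTCF peaks against distance from the start of the Klf4 gene window (kb), 1 panel per list, with dotted lines at -240 and 0 kb and the gene window shaded. The 7 peaks of the NPC list stand in 2 groups, at -295 to -286 kb and from -75.8 kb to the gene window, and no list has a peak further downstream.

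The authors' deposited table of looping pixels, which are pairs of 4 kb bins, sorts pixels by the states in which they loop. Outside the gene window it holds 409 pixels of the locus, of which 138 are background and 271 carry a looping class. In that table of the authors, as deposited, 2i only is the class of 128 pixels. In the authors' deposited table, 53 of them join the upstream and middle segments, 43 lie within the middle, 22 within the upstream segment and 10 join middle and downstream. The 58 pixels of 2i and serum lie mostly within the upstream segment, which holds 44 in the authors' deposited table. Of the 20 pixels that loop in NPCs only, 10 join upstream and middle, across the edge at 55299979 where the ES profile dips, in the authors' deposited table. The share that crosses this edge is 50% there, 41.4% for 2i only, 16.7% for background and 0% to 22.2% for the other classes. The 26 pixels of serum only include 16 that cross 55539979, or 61.5%, in the authors' deposited table, against 10 of the 128 pixels of 2i only, or 7.81%. No looping class has a pixel within the downstream segment, where the authors' deposited table has 36 background pixels. The classes were made from these libraries, so their counts are no separate evidence of the contact changes above.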

How the data were processed

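The 5C libraries (6 untreated, 4 siRNA) were deposited as raw read counts per primer pair. The submitters' processing notes list Bowtie, MACS2 and mm9, without versions or read filters. CTCF peak lists give the authors' fold enrichment (a ratio) and −log10 q per peak, 1 library a list, with file names that speak of downsampled reads. The inputs were not used here. The deposited processed contact value per pair of 4 kb bins is a score of unstated scale. It served as an alternative, and 51 further per-sample columns were not used. Groups and replicates came from titles. For control siRNA the growth text conflicts with the title.

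Fragments were placed by midpoint in 16 kb windows, using 246 of 249 fragments. Log2((count + 0.5) per primer pair) minus a lowess trend on log2 distance (span 0.5) and additive window effects, per library and locus, gave the adjusted contact. An edge needed at least 32 of 64 window pairs. Scores and block means were tested with limma 3.58.1 and window-pair counts with edgeR 4.0.16 (quasi-likelihood, filterByExpr, TMM, distance trend as offset) in R 4.3.3, fitted on all loci, group as the only term, separately for untreated and siRNA libraries, Benjamini-Hochberg adjusted p below 0.05. No library repeated another (chi-square per degree of freedom 14.3 to 98.4 within groups). Peaks were joined with bedtools 2.31.1 at any overlap. DESeq2 1.42.0 was an alternative tool.

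Tested on simulated data, 5 of 5 edges lowered by 0.6 were recovered for NPC against 2i over 370 edges, with a mean estimate of -0.39, and 2 of 2 for siRNA over 110. Of window pairs changed by a log2 fold of 1 and 2, 44 and 116 of 120 each were recovered over 15540 pairs for NPC against 2i, and 1 and 16 of 40 each over 3738 for siRNA. Far from the lowered edges, 7 of 200 edges were called for NPC against 2i and 0 of 65 for siRNA. Named edges and pairs were the 3 largest called changes each way per comparison with separated groups, at least 3 windows apart, pairs with at least 20 counts in each library of the higher group and less than 80% from 1 fragment pair. CTCF sites near a boundary and the 3 highest per list were named. Other positions were chosen after their values were seen. The members, lists and tests were chosen with earlier results of these data known. Intervals cover counting error only, or the model's error. CTCF motifs were not analysed here, for want of an mm9 sequence.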

Additional observations from a re-analysis of the deposited data

How the results depend on the processing

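The dips at 55299979 and 55523979 were wide next to the 16 kb windows, and the number of boundaries on the mean of the 6 untreated libraries, 1, followed the settings. It was 2 at a depth of at least 0.2, with the counts thinned to equal depth and with window levels kept, 3 with 4 windows on each side, and 0 with 12 windows on each side or a depth of at least 0.5. Without 1 library it was 1 to 2, and without NPC replicate 1 or without NPC replicate 2 it was 2. The gene window kept, or the authors' processed values (chosen after seeing the data, as were the segments), left it at 1.

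The edges called for NPCs against 2i numbered 45 to 48 and against serum 42 to 45 when a library was left out. For serum against 2i the count was 24, and 11 to 29 without 1 library, 4 with 4 windows, 41 with window levels kept and 43 with the authors' processed values. For YY1 siRNA it was 0, and 0 to 10 without 1 library, 11 with window levels kept and 7 with the authors' processed values. The blocks called for NPCs against serum fell from 3 to 1 with window levels kept, and for serum against 2i they went from 0 to 3 both with window levels kept and with the authors' processed values.

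The window pairs called numbered 120 to 264 without 1 library for NPCs against 2i (303 with all), with 120 without 2i replicate 1. They numbered 121 to 339 for NPCs against serum (346), with 153 and 121 without serum replicates 1 and 2. For serum against 2i there were 74 to 451 (376), with 155 and 247 without 2i replicates 1 and 2 and 130 and 74 without serum replicates 1 and 2. For YY1 siRNA there were 0 to 46 (0), with 4 and 7 without control replicates 1 and 2 and 46 without YY1 replicate 2. Total-count scaling gave 521 for NPCs against serum, and DESeq2 gave 21 for YY1 siRNA. Replicate numbers did not pair the libraries: correlations of replicate differences over all edges were -0.13 to 0.068 in the untreated groups and 0.054 with siRNA. Over the Klf4 edges alone the siRNA value was 0.30, from a single pair of groups with 2 numbers. Where a group keeps 1 library, that library is assumed to vary like the others. With the replicate block 19 window pairs were called for YY1 siRNA, 9 higher and 10 lower, and no other count moved by over 1.5 times.

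Signs turned in 6 cases among the named results. The change of NPCs against serum was -0.024 at 55779979 with 4 windows and -0.065 at 55683979 with window levels kept. That of serum against 2i at 55283979 was -0.061 with window levels kept and -0.0071 with counts summed in edgeR. Contact within the upstream domain in NPCs against 2i, 0.057, became -0.14 with window levels kept and -0.13 with the authors' processed values. The causes were not tested. Of the other alternatives for named results, 525 left direction and call as they were and 26 ended the call. Contact within minus between domains, 0.23 in untreated and 0.37 in siRNA libraries, was 0.53 and 0.62 with window levels kept, and 0.42 in siRNA libraries with the authors' processed values. These are means over groups, and with window levels kept 2i lay close to NPCs. With a −log10 q of at least 50 the CTCF sites fell from 26 to 12. Few counts limit the precision of pairs of the window at 55667979.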
